A study of Mus musculus with 2 samples.

Results

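Effector cytokines and death ligands are the secreted and membrane-bound proteins by which CD8+ T cells act on other cells. The 9 genes Ifng, Tnf, Il2, Il10, Csf2, Lta, Ltb, Fasl and Tnfsf10 were taken by symbol from the 32285 genes of 2 single-cell RNA libraries of CD8+ tumor-infiltrating lymphocytes (TIL), and all 9 were found once. One library was labelled Lean and the other Obese, with 1 library per group, and the study fed its mice normal chow (NC) or a western diet (WD). TIL came from 16-week-old male mice bearing transplanted B16 F0 tumors, a melanoma line of the C57BL/6 strain, and were enriched with CD8 MicroBeads and sorted on CD8. The number of mice behind each library is not given in the sources used here, so values of the libraries are set side by side with counting error only, and no test between diets was made.

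Interferon gamma acts through the JAK-STAT pathway on antigen presentation and macrophage activation, tumor necrosis factor and lymphotoxins act through receptors of the TNF receptor superfamily, and IL-2 feeds T cell growth. Fas ligand and TRAIL, the product of Tnfsf10, bind death receptors that start caspase-driven apoptosis of the target cell. Cytokine genes are switched on after antigen receptor signalling by factors such as NFAT, AP-1 and NF-kB, and many of their mRNAs carry AU-rich elements in the 3′ untranslated region that are bound by decay proteins of the Zfp36 family. A T cell that makes several cytokines at once is called polyfunctional.

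The AU-rich elements are shown first because they separate the 9 genes by sequence. In the longest annotated 3′ untranslated region of each gene (GENCODE M21, GRCm38), the pentamer ATTTA was counted on the sense strand with overlaps allowed, and the 30 bases holding most copies are printed for 6 genes, with the pentamers in capitals.
Csf2: tttttaaatATTTATTTATTTATTTATTTA
Tnf: attATTTAttATTTATTTAttATTTATTTA
Il2: ctATTTATTTAaatATTTAactttaATTTA
Ifng: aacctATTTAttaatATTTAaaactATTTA
Lta: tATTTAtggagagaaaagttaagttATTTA
Fasl: gctgtttttctttaatacaactagtATTTA
The Csf2 window lies at chr11:54247329-54247358 on the minus strand, that of Tnf at chr17:35199679-35199708 (minus), that of Il2 at chr3:37121040-37121069 (minus), that of Ifng at chr10:118445330-118445359 (plus), that of Lta at chr17:35203408-35203437 (minus) and that of Fasl at chr1:161780775-161780804 (minus). Csf2 held 9 pentamers in 317 bases, or 28.4 per 1000 bases, a higher density than 99.9% of the 20815 genes with an annotated region. Il2 held 7 in 581 bases, Tnf 8 in 764, Ifng 6 in 631 and Il10 6 in 706, each denser than at least 98.2% of genes. Lta held 3 in 572 bases, Tnfsf10 held 8 in 3998, Fasl held 1 in 887 and Ltb held none in 174. At least 1 pentamer occurred in 65.8% of genes, with a median of 1.26 per 1000 bases. The longer core TTATTTATT occurred 5 times in Tnf, 4 times in Csf2, once each in Il2 and Lta and in none of the other 5 members, against 7.73% of all genes with at least 1.

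Promoters of Ifng, Tnf and Il2, the cytokines by which polyfunctional CD8+ T cells are usually scored, are shown from RefSeq (GRCm38.p6), from 250 bases before to 50 after the start. Capitals mark TATAAA and the NFAT core GGAAA, each on either strand, so that TTTCC is the core read on the opposite strand.
Ifng: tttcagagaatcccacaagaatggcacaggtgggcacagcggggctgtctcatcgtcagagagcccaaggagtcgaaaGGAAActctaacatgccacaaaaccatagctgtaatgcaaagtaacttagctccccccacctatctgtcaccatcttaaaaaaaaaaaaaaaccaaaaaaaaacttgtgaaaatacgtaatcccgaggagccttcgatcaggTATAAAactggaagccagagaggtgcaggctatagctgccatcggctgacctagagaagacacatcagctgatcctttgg
Tnf: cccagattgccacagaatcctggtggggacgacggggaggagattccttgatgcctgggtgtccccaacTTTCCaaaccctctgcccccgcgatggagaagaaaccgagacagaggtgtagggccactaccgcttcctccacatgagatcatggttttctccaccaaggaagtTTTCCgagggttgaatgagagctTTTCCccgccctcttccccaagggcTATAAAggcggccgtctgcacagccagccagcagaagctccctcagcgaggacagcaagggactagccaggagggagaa
Il2: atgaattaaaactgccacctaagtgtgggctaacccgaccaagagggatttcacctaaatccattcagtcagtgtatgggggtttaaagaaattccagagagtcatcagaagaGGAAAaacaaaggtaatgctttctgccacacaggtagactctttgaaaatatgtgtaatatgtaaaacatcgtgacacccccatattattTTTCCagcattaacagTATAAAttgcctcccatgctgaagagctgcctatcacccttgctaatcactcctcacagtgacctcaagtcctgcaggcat
These stretches lie at chr10:118440796-118441095 (plus), chr17:35201958-35202257 (minus) and chr3:37125905-37126204 (minus). Each of the 3 promoters held 1 TATAAA, as did that of Lta, and the promoters of Csf2, Ltb, Fasl and Tnfsf10 held none, whereas 14.2% of 27025 promoters held it. The NFAT core occurred in all 8 promoters that matched the table (61.3% of all promoters), 3 times in Tnf, Lta and Csf2. The AP-1 motif TGANTCA, present in 7.93% of promoters, occurred in none of the 8. The Csf2 stretch, chr11:54249850-54250149 (minus), lay wholly upstream of the GENCODE gene, which ends at 54249667. Its motif counts thus describe that stretch and not the bases next to the GENCODE start. The promoter of Il10 was not among those matched.

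Between libraries, depth and the mix of cells differed. After keeping cells with under 7.5% mitochondrial UMIs and over 500 and under 50000 UMIs (unique molecular identifiers, each standing for 1 captured mRNA), 2456 of 2697 Lean and 2289 of 2623 Obese cells remained, with 27815785 and 28705830 UMIs and medians of 7958 and 9103 UMIs per cell. Barcodes shared by both libraries numbered 2 among kept cells. The 6 CD8 T cell markers were all detected and summed to 5722 CPM (UMIs per 1000000 UMIs of the library) in Lean and 5009 in Obese, against 5.28 and 5.19 for 3 CD4 T cell markers and 0.68 and 1.01 for 5 melanoma markers. Markers of other cells summed to 413 and 405 CPM for dendritic, 40.9 and 64.7 for B, 33.6 and 20.1 for NK, 19.0 and 13.3 for myeloid and 3.34 and 4.81 for gamma-delta T cells. Effector markers summed to 2676 and 1086 CPM, and 4 red blood cell genes to 0 and 320 CPM.

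Cells were clustered without the 9 members, so their levels played no part in it. Among 7 clusters, 5 were named from markers, and levels by state are described for the 4 larger of these. The naive-like cluster (577 Lean and 433 Obese cells, median 7613 UMIs) had Lef1 and Tcf7 among its leading genes, the proliferating-like (481 and 579, 22587) was led by Pclaf and Birc5, the effector-like (615 and 305, 11894) by the granzymes Gzmd, Gzme and Gzmf, and the interferon-stimulated-like (464 and 704, 5910) by Gzma and the Ifit genes. In a finer clustering the strongest Ifit signature was held by 130 cells, while 1026 cells were led by Gzma, Ier3 and Ccl5. The leading genes of the 1026 included 3 memory markers and no interferon-stimulated marker. Values given as interferon-stimulated-like are thus those of a mixed cluster, and its name does not describe all of its cells. The effector-like cluster was mixed too, with cells of a Gzmd-led fine group of 720 and of a Cxcl13-led fine group of 202. Gzmb stood at 1989 CPM in the first group and 68.6 in the second, and Tcf7 at 7.39 and 98.2 CPM. Values given as effector-like are thus not those of granzyme-high cells alone. Cluster 4 (281 and 186 cells, median 2652) stayed unnamed. Its leading genes were hemoglobins, Gm26917, Rmrp and Lars2. The hemoglobin UMIs came from its Obese cells only, as kept Lean cells had none of the 4 genes. A further unnamed cluster of 89 cells and the fifth named cluster, 31 dendritic-like cells, are not described by diet.

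Over all cells the members ranged in Lean from 1.47 CPM for Il10 to 702 CPM for Ltb, and their levels lay close in both libraries, with Il2 and Csf2 differing most. Counting with UMIs at the 3′ end is per molecule, so levels need no scaling by length. Of the 9 members 2 were past a log2 ratio of 0.5 toward Obese and 0 past it toward Lean, whereas 5.81% and 4.15% of the 11262 genes with at least 50 UMIs were past it in each direction. The median log2 ratio was 0.26 over the members and 0.04 over all those genes. With 1 library per diet, the diet and any difference in handling, tumors or sequencing between the libraries cannot be told apart, and in a sum over cells, fewer expressing cells and less mRNA per cell cannot be told apart either.

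**Figure D1:**
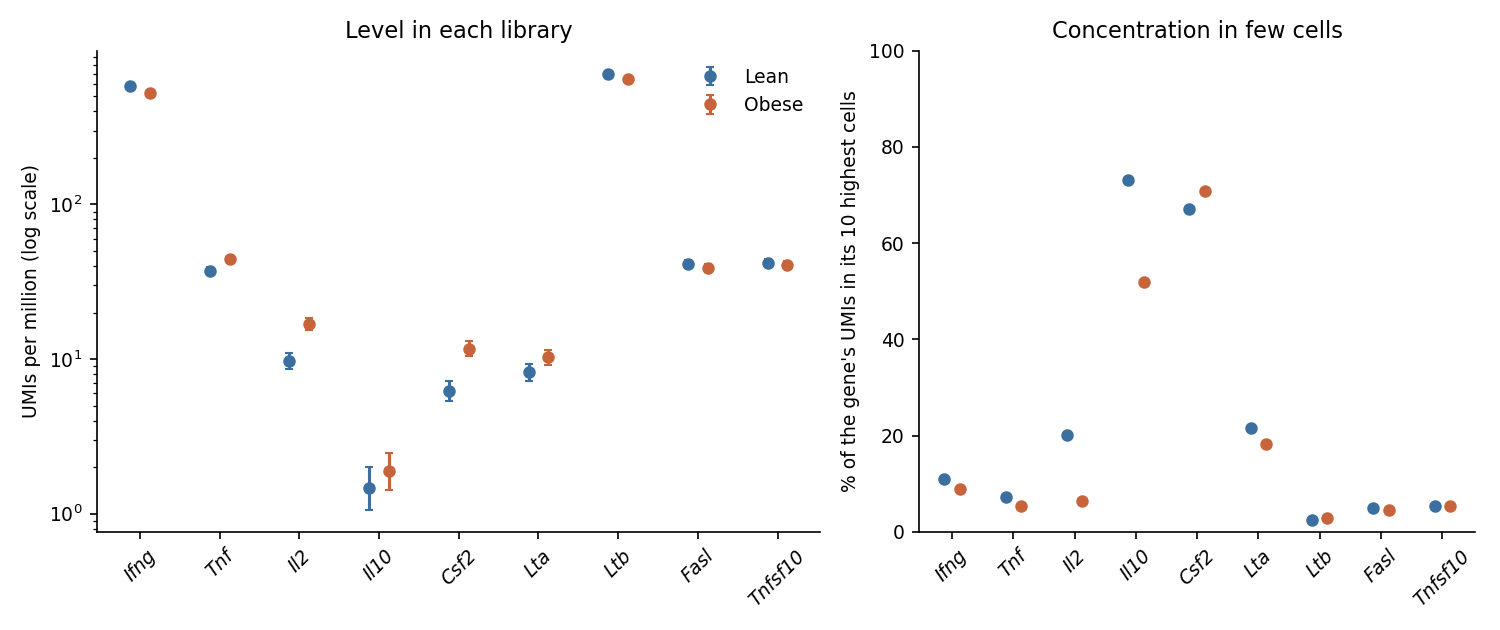
Levels of the 9 genes in the Lean and Obese libraries as CPM on a log axis (left, bars are exact 95% Poisson intervals), and the percent of each gene's UMIs that lay in its 10 highest cells (right). Ltb and Ifng stood above 500.3 CPM in both libraries, and more than 50% of the UMIs of Il10 and Csf2 came from 10 cells.

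Ifng, the interferon of T and NK cells (ENSMUSG00000055170, chr10:118441046-118445892, plus strand), stood at 580 CPM (571 to 589) in Lean and 525 CPM (517 to 534) in Obese. Its log2 ratio Obese over Lean was −0.14 (−0.17 to −0.11). It shrank to −0.04 as the mean of each cell's own CPM and to −0.075 after thinning to 2000 UMIs, and turned to 0.11 as the mean of within-cluster ratios with equal weights, so the direction depended on how cells were weighted. UMIs of Ifng were seen in 65.6% of Lean and 70.7% of Obese cells, and after thinning each cell to 2000 UMIs in 42.3% and 44.4%. The order of the shares thus ran against that of the CPM, and no order is read from the shares. Ifng was carried unevenly: 50% of its UMIs lay in 177 Lean and 220 Obese cells, and single cells reached 276 and 405 UMIs. The Lean cell of 276 UMIs, effector-like and 25689 UMIs deep, also held the most Tnf (19 UMIs) and the most Il10 (8 UMIs) of its library.

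Tnf, a trimeric inflammatory cytokine (ENSMUSG00000024401, chr17:35199381-35202007, minus), stood at 37.0 CPM (34.8 to 39.3) and 44.2 CPM (41.8 to 46.7), which gave a log2 ratio of 0.26 (0.14 to 0.38). The thinned share of cells was 7.94% in Lean and 9.27% in Obese. Tnf was spread over many cells, with at most 19 and 8 UMIs in any one.

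Il2, the T cell growth factor (ENSMUSG00000027720, chr3:37120523-37125959, minus), stood at 9.78 CPM (8.65 to 11.01) in Lean and 16.8 CPM (15.4 to 18.4) in Obese, which gave a log2 ratio of 0.78 (0.57 to 1.003). Most positive cells held a single UMI, 195 of 216 in Lean and 318 of 394 in Obese, and 1 Lean cell held 29. Without the highest cell of each library the log2 ratio was 0.93 (0.71 to 1.16). The thinned share was 1.62% and 3.23%, beside 0.79% and 2.13% in naive-like cells, whose median depths were 7466 and 7860 UMIs. In both libraries the naive-like share was below that over all cells, though both were low. Naive-like cells were 21.3% of all cells and held 7.28% of the Il2 UMIs, but depth differs between clusters, so these 2 shares are not on the same scale. By level, Il2 in naive-like cells was 3.53 CPM in Lean and 10.8 in Obese, beside the 9.78 and 16.8 over all cells.

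Csf2, which encodes the myeloid growth factor GM-CSF (ENSMUSG00000018916, chr11:54247271-54249667, minus), stood at 6.22 CPM (5.33 to 7.22) in Lean and 11.7 CPM (10.5 to 13.0) in Obese, which gave a log2 ratio of 0.91 (0.64 to 1.19). The gene was concentrated more than any other member with over 100 UMIs. In each library 50% of its UMIs lay in 4 cells, and 56 Lean and 67 Obese cells had any. The highest cells held 29 and 74 UMIs. Leaving out the 10 highest cells of each library left 2.07 and 3.45 CPM, or 0.74 (0.25 to 1.23) on the log2 scale. In all deposited cells, which add those of over 50000 UMIs and high mitochondrial share, the log2 ratio was 0.21.

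Lta, which encodes the soluble lymphotoxin alpha (ENSMUSG00000024402, chr17:35203165-35205351, minus), had 8.20 CPM (7.17 to 9.33) and 10.3 CPM (9.14 to 11.5), which gave a log2 ratio of 0.33 (0.07 to 0.58). Ltb, which anchors lymphotoxin at the membrane (ENSMUSG00000024399, chr17:35194439-35196320, plus), was the most abundant member at 702 CPM (693 to 712) and 650.4 CPM (641 to 659.8), which gave a log2 ratio of −0.11 (−0.14 to −0.08). Tnf, Lta and Ltb are neighbours, with 1157 bases between Tnf and Lta and 3060 between Ltb and Tnf. Their levels were far apart all the same, and Ltb was seen in 89.4% and 90.4% of cells.

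Il10, an anti-inflammatory cytokine (ENSMUSG00000016529, chr1:131019845-131024974, plus), was the rarest member with 41 UMIs in 21 Lean cells and 54 UMIs in 36 Obese cells. Its 1.47 CPM (1.06 to 1.9996) and 1.88 CPM (1.41 to 2.45) gave a log2 value of 0.35 (−0.26 to 0.97), and at this depth no difference over all cells could be resolved. Of its UMIs 50% lay in 4 Lean and 9 Obese cells. Leaving out the 10 highest cells of each library left 11 and 26 UMIs and a log2 value of 1.20 (0.13 to 2.36). Taking 10 cells from 21 and from 36 positive cells moves this value toward Obese by construction, so no difference is read from it.

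The death ligands differed least. Fasl (ENSMUSG00000000817, chr1:161780689-161788495, minus) stood at 41.1 CPM (38.8 to 43.6) in Lean and 39.1 CPM (36.8 to 41.4) in Obese, which gave a log2 ratio of −0.07 (−0.19 to 0.05). Tnfsf10 (ENSMUSG00000039304, chr3:27317028-27342427, plus) stood at 41.9 CPM (39.5 to 44.4) and 40.4 CPM (38.1 to 42.8), which gave a log2 ratio of −0.05 (−0.17 to 0.07). For both genes the thinned shares were also near each other, 8.85% and 8.94% for Fasl and 7.66% and 7.73% for Tnfsf10. The order of levels over all cells was Ltb, Ifng, then Tnf, Tnfsf10 and Fasl, then Il2, Lta and Csf2, and last Il10. Intervals of Fasl and Tnfsf10 overlapped in both libraries, those of Tnf and Fasl in Lean only, those of Tnf and Tnfsf10 in Obese only, those of Il2 and Lta in Lean only, and those of Lta and Csf2 in both.

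By cell state the members fell into different patterns. Ifng was 751 CPM (736 to 766) in effector-like, 633 (623 to 643) in proliferating-like, 525 (509 to 542) in interferon-stimulated-like and 79.9 (73.9 to 86.3) in naive-like cells, with both libraries pooled. The log2 ratio of effector-like over naive-like was 3.23 (3.12 to 3.35). The 31 dendritic-like cells, which are not a main source of Ifng, also held 317 CPM, and the origin of those UMIs was not tested.

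Csf2 was the most state-bound member. It had 22.3 CPM (19.8 to 25.1) in effector-like and 8.37 (7.28 to 9.57) in proliferating-like cells, which held 56.8% and 42.04% of its UMIs. In naive-like cells 1 UMI was found and in interferon-stimulated-like cells 2. The log2 ratio of effector-like over naive-like was 7.51 with a counting interval from 5.02 to 12.8.

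**Figure D2:**
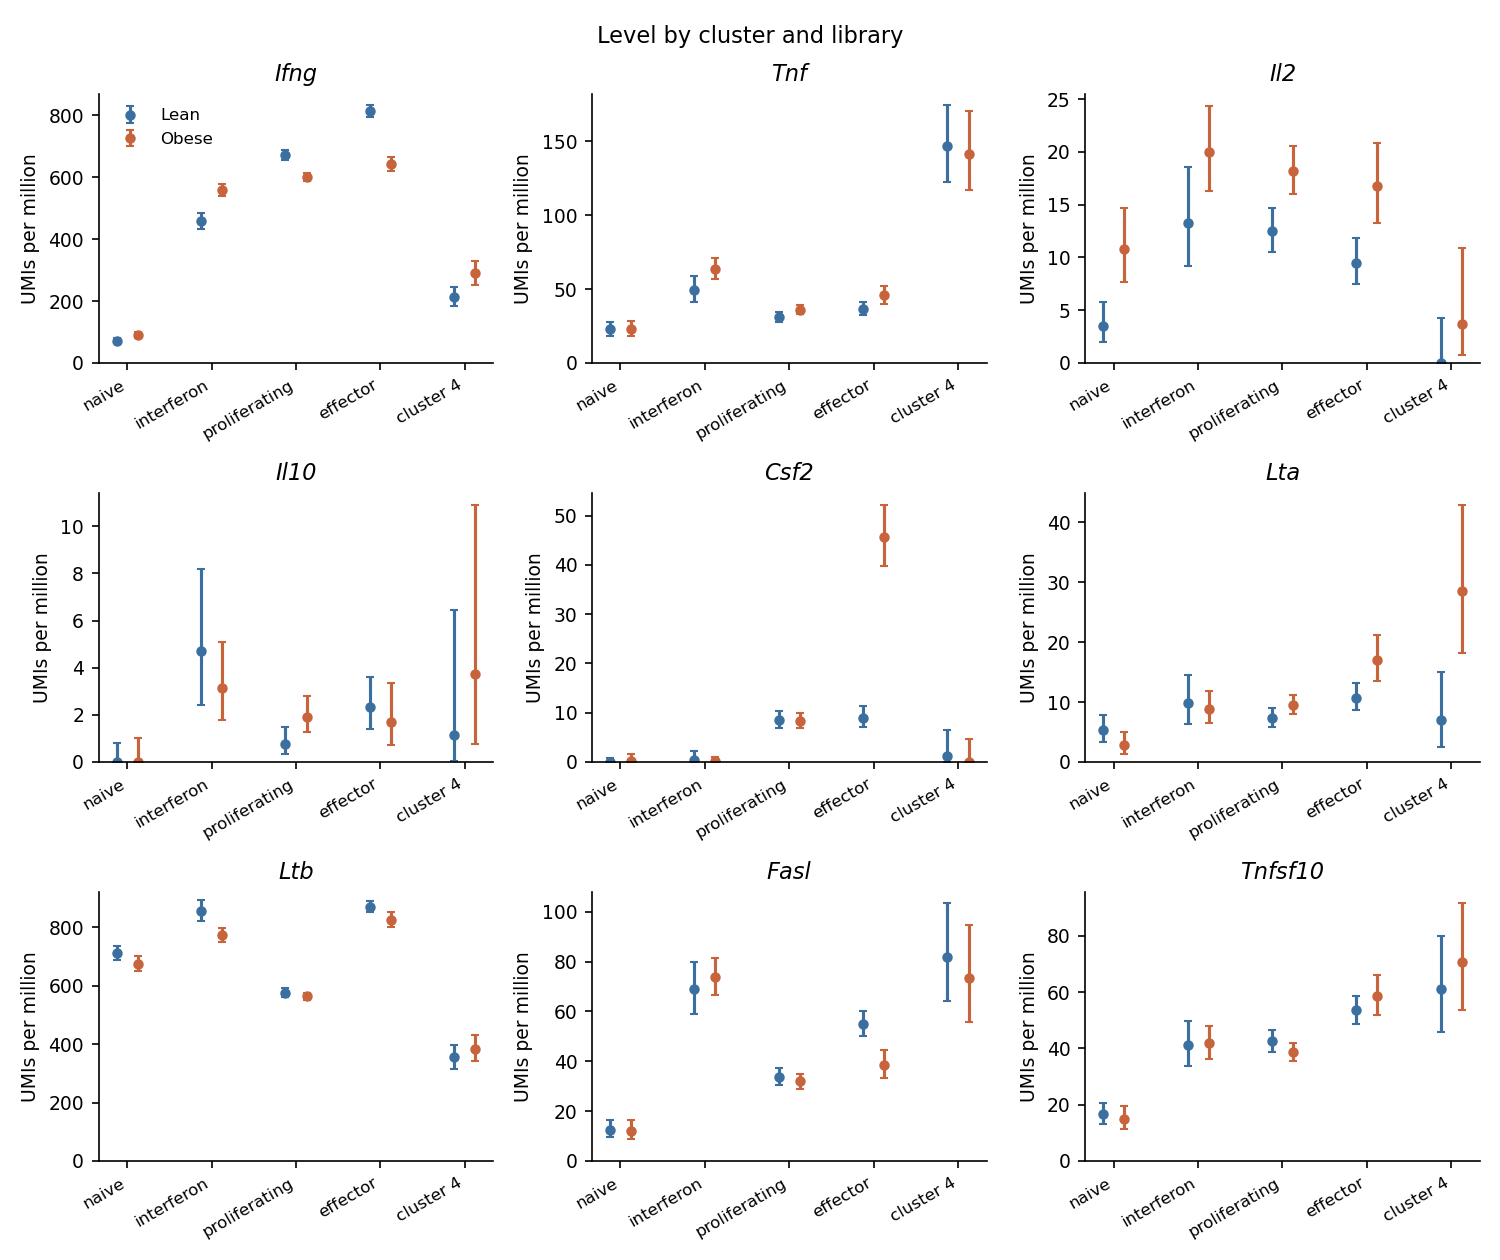
CPM of each member in 4 named clusters (naive-like, interferon-stimulated-like, proliferating-like, effector-like) and the unnamed cluster 4, by library; bars are exact 95% Poisson intervals and each panel has its own axis from 0. Csf2 stood apart in Obese effector-like cells at 45.6, and of these clusters Tnf was highest in cluster 4 in both libraries.

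Fasl was highest among the 4 larger named clusters in interferon-stimulated-like cells, at 72.1 CPM (66.2 to 78.3), followed by 49.0 (45.3 to 53.0) in effector-like, 32.8 (30.6 to 35.1) in proliferating-like and 12.4 (10.1 to 15.1) in naive-like cells. Tnfsf10 was highest in effector-like cells at 55.4 CPM (51.4 to 59.6) and overlapped in interferon-stimulated-like (41.6, 37.1 to 46.4) and proliferating-like cells (40.4, 38.0 to 42.9). Both death ligands were lowest in naive-like cells.

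Tnf among the same 4 clusters was also highest in interferon-stimulated-like cells, at 58.7 CPM (53.4 to 64.4), against 39.96 in effector-like, 33.7 in proliferating-like and 22.7 in naive-like cells. The 1026 Gzma-led cells of the finer clustering had 56.8 CPM (51.3 to 62.9) of Tnf and the 130 Ifit3-led cells 73.6 (56.8 to 93.8). The 31 dendritic-like cells had 72.3 CPM (50.04 to 101) on 34 UMIs. Cluster 4, the shallow cluster, had 144 CPM (127 to 164) of Tnf, 77.8 CPM (65.0 to 92.4) of Fasl and 65.8 CPM (54.1 to 79.3) of Tnfsf10. Its Ifng was 250.1 CPM and its Ltb 369 CPM, the lowest Ltb of these 5 clusters. The part of cell quality in this was not tested.

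Ltb varied least by state among the 4 larger named clusters, from 570 CPM (560 to 579) in proliferating-like to 855 CPM (839 to 871) in effector-like cells. Naive-like cells held 696 CPM (678 to 714). The log2 ratio of effector-like over naive-like Ltb was 0.30 (0.25 to 0.34), and −0.07 (−0.11 to −0.03) when cells were grouped into 5 clusters. The matched clusters then held further cells beside the effector-like and naive-like ones, so the second ratio is not of the same cells. Dendritic-like cells held 306 CPM of Ltb. Among the 4 clusters Lta ranged from 4.17 CPM (2.89 to 5.83) in naive-like to 13.0 CPM (11.1 to 15.1) in effector-like cells, and Il2 from 6.75 CPM (5.09 to 8.79) in naive-like to 17.8 CPM (14.9 to 21.04) in interferon-stimulated-like cells. Il10 was not seen in 1010 naive-like cells, where a count of 0 allows up to 0.45 CPM, and had between 1.41 and 3.66 CPM in the other 3 of the 4 clusters. The 31 dendritic-like cells had no UMI of it either. Over the 8 members with a UMI in naive-like cells the median log2 ratio of effector-like over naive-like was 1.72.

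The finer clustering at 13 clusters resolved small groups. A group of 42 cells led by the chemokine genes Xcl1, Ccl1 and Ccl4 with Crtam had the highest Ifng, 1865 CPM, at 1433 CPM (1314 to 1559) in 29 Lean cells and 2698 CPM (2472 to 2940) in 13 Obese cells. A single cell held 405 of the 523 Ifng UMIs of those Obese cells, and the other 12 had 707 CPM. It also had the highest Il2, 75.8 CPM, but this rested on the Lean cells with 41 UMIs against 2 in the Obese cells, and 1 Lean cell held 29 of the 41. A group of 202 cells led by Cxcl13, Tbc1d4, Cd81 and Cd200 had the highest Csf2 with both libraries pooled, 31.1 CPM, though in Obese it stood below the Gzmd-led group, with 28.4 CPM of Lta and 912 CPM of Ltb, but only 232 CPM of Ifng. The 328 cells led by Igfbp4, Lef1 and Ccr7 had the lowest Ifng, 35.5 CPM, with 3.23 CPM of Fasl and no UMI of Csf2 or Il10. The 130 cells led by Ifit3 and Rsad2 had 447 CPM of Ifng (384 to 518) in Lean and 858 CPM (778 to 944) in Obese, and 45.7 CPM of Tnf (27.1 to 72.3) against 96.0 (70.5 to 128).

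Within clusters the difference between libraries was largest for Csf2. In effector-like cells Csf2 stood at 9.01 CPM in Lean and 45.6 CPM in Obese, which gave a log2 ratio of 2.34 (1.95 to 2.74), and in proliferating-like cells at 8.46 and 8.29 CPM, which gave a log2 ratio of −0.03 (−0.43 to 0.38). The share of effector-like cells with a Csf2 UMI was 3.74% in Lean and 12.1% in Obese, and 0.98% and 3.45% after thinning, beside 0% and 0.03% in naive-like cells. Effector-like cells had medians of 11123 and 13877 UMIs. Without the 10 highest cells of each library in this cluster, 1.62 and 8.46 CPM remained, which gave a log2 ratio of 2.39 (1.45 to 3.42) on 13 and 38 UMIs. Fewer Lean than Obese cells of this cluster had a Csf2 UMI, so the 10 cells were a larger part of the Lean positive cells. This ratio thus cannot show whether the difference is free of single cells. Of the fine groups, the 720 cells led by Gzmd, Gzmf and Gzme held 4.36 CPM (2.96 to 6.18) in Lean and 54.2 CPM (46.6 to 62.8) in Obese, and the Cxcl13-led group 39.4 CPM (28.6 to 53.1) and 24.9 CPM (17.4 to 34.5). Single cells weigh on both groups: without the highest Obese cell the first held 32.0 CPM in Obese, and without the highest Lean cell the second held 13.0 CPM in Lean.

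**Figure D3:**
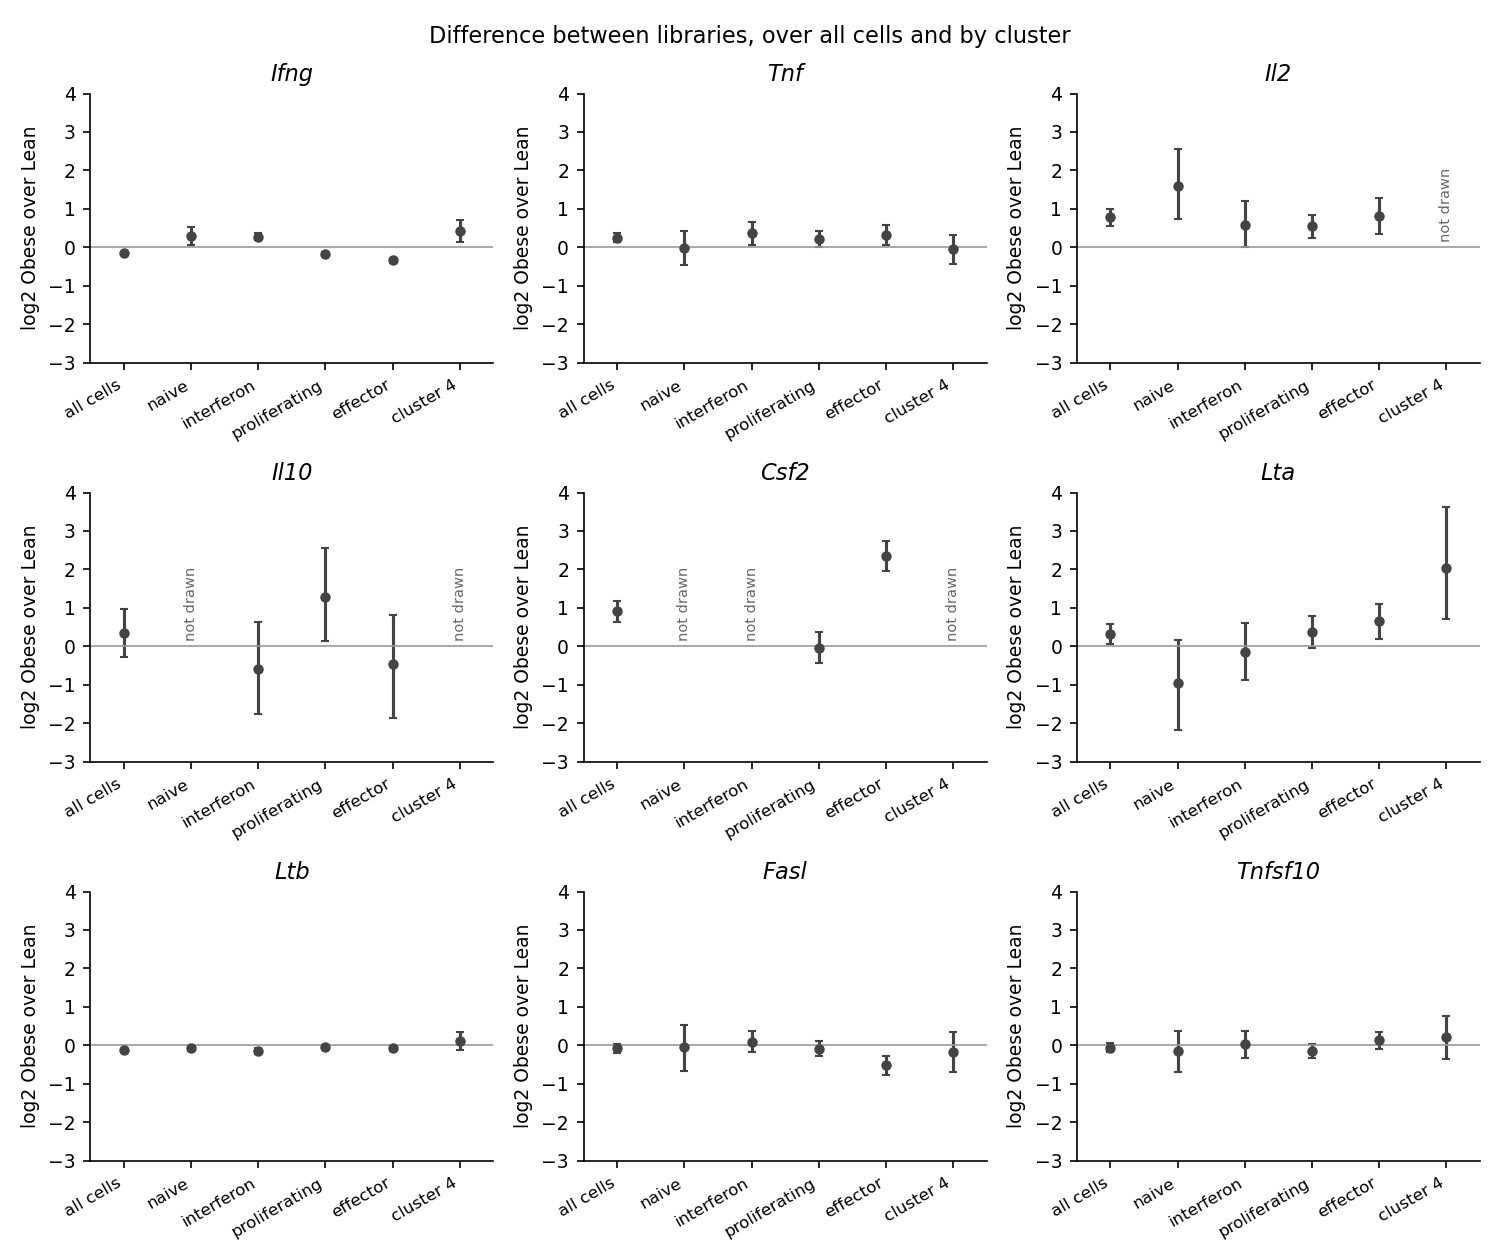
Log2 ratio Obese over Lean of each member over all cells and in 5 clusters, with exact 95% conditional intervals for counting error; ratios with fewer than 3 UMIs in a library are not drawn. Csf2 in effector-like cells lay at 2.34, and Ifng lay below 0 in proliferating-like and effector-like cells and above 0 in the other 3 clusters.

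Il2 was higher in Obese in each of the 4 larger named clusters, with log2 ratios of 1.61 (0.74 to 2.55) in naive-like, 0.59 (0.02 to 1.20) in interferon-stimulated-like, 0.55 (0.25 to 0.85) in proliferating-like and 0.82 (0.35 to 1.29) in effector-like cells. The naive-like value rests on 16 and 39 UMIs. Tnf was higher in Obese in 3 of these clusters, by 0.36 in interferon-stimulated-like, 0.22 in proliferating-like and 0.32 in effector-like cells, with intervals above 0, and at −0.01 (−0.44 to 0.43) in naive-like cells. Lta differed in effector-like cells, 10.7 CPM against 17.0 CPM, or 0.66 on the log2 scale (0.21 to 1.12), and in cluster 4 on 6 and 23 UMIs, 12 of the latter in 1 cell. In the Gzmd-led fine group (524 Lean and 196 Obese cells) Lta stood at 7.45 and 13.0 CPM, or 0.81 (0.19 to 1.41). In the Cxcl13-led group (90 and 112 cells), higher in Lta, it stood at 32.1 and 25.6 CPM, or −0.33 (−1.03 to 0.38).

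Fasl was lower in Obese effector-like cells, at 55.0 CPM in Lean and 38.6 CPM in Obese, which gave a log2 ratio of −0.51 (−0.77 to −0.26), with thinned shares of 11.2% and 7.37%. Fine groups were split differently by library: the Gzmd-led fine group held 524 Lean and 196 Obese cells and the Cxcl13-led group, lower in Fasl, 90 and 112. In the Gzmd-led group Fasl stood at 59.03 and 46.95 CPM, or −0.33 (−0.61 to −0.06) on the log2 scale. In the other 4 clusters its interval included 0. Tnfsf10 had an interval that included 0 in all 5 clusters, from −0.15 in naive-like to 0.21 in cluster 4. Ltb lay within 0.15 of 0 on the log2 scale in all 5.

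Polyfunctional cells were counted over the 5 cytokines Ifng, Tnf, Il2, Csf2 and Lta, after thinning each cell of at least 2000 UMIs to 2000, as the number of genes seen grows with depth. UMIs of 2 or more of them were expected in 5.52% (4.67 to 6.52, Wilson interval) of 2330 Lean cells (of 2456) and 7.95% (6.88 to 9.16) of 2177 Obese cells (of 2289), a difference of 2.43 percentage points (0.96 to 3.91, counting error only). Each of the 5 alone also had a higher thinned share in Obese, down to 0.52% and 0.72% for Csf2 and 1.50% and 1.70% for Lta. Higher single shares raise the share with 2 or more by themselves. The share expected from the single shares was not computed, so the difference is not read as more co-detection. Naive-like cells had 0.95% and 1.35%. The shares were 7.503% and 10.95% in effector-like, 6.52% and 8.20% in proliferating-like and 6.13% and 9.73% in interferon-stimulated-like cells, so Obese was the higher in each, with overlapping intervals. Unthinned shares were 27.6% and 39.8%.

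Most thinned cells showed 1 cytokine or none. In thinned cells 52.0% of Lean and 49.1% of Obese cells showed none, 42.5% and 42.9% showed 1, and 0.29% and 0.41% showed 3. Counting only Ifng, Tnf and Il2, 4.52% and 6.65% had 2 or more. Leaving Il2 out of the 5 gave 4.85% (4.05 to 5.80) and 6.35% (5.40 to 7.46). Over all 9 members, where Ltb is in most cells, 41.5% and 43.5% had 2 or more.

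**Figure D4:**
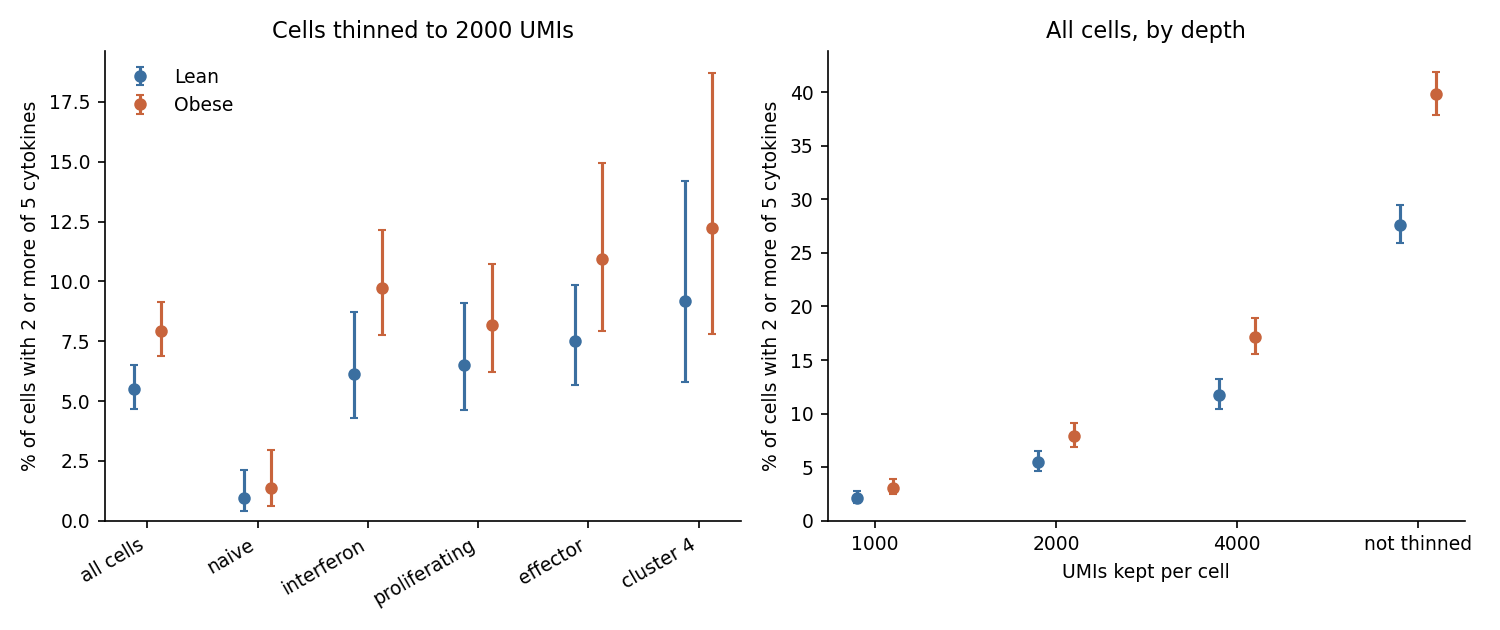
Percent of cells with UMIs of 2 or more of Ifng, Tnf, Il2, Csf2 and Lta after thinning to 2000 UMIs, over all cells and by cluster (left), and over all cells by UMIs kept per cell (right); bars are 95% Wilson intervals. Obese lay above Lean at every depth, from 2.15% and 3.10% at 1000 UMIs to 27.6% and 39.8% without thinning.

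Without thinning, 21 Lean and 54 Obese cells held UMIs of 4 or more of the 5 cytokines, and 0 Lean and 7 Obese cells of all 5. These were deep cells, with medians of 28987, 23119 and 38250 UMIs, and 15 of the 21 and 26 of the 54 were proliferating-like. Effector-like cells made up 6 and 22. Since cells of many UMIs can be doublets and no doublet caller was run, these counts are descriptions of barcodes.

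Pairs of members were set against the product of their shares, which is the joint share if the genes were detected independently. Ifng and Tnf were seen together in 3.85% (3.14 to 4.71) of thinned Lean and 5.03% (4.19 to 6.03) of thinned Obese cells, 1.15 and 1.22 times the product. With the product taken within clusters the values were 1.11 and 1.15. Among cells with Ifng 9.10% of Lean and 11.3% of Obese cells had Tnf, and among cells without it 7.08% and 7.63%. Ifng and Fasl reached 1.299 and 1.24 times the product, and 1.13 and 1.10 within clusters, so the pairing was weaker once cell state was held.

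Ifng with Il2 stood at 0.70% and 1.65% of cells, 1.02 and 1.15 times the product, and 0.88 and 1.06 within clusters. Ifng with Ltb stood at 1.004 and 0.998 times the product. The death ligands Fasl and Tnfsf10 were seen together in 0.82% and 0.91%, or 1.21 and 1.32 times the product, and 1.04 and 1.17 within clusters. Of the 36 pairs, 9 that do not involve Ltb had at least 5 expected cells in both libraries, and the interval of the ratio over all cells included 1 in both libraries for 6 of the 9.

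**Figure D5:**
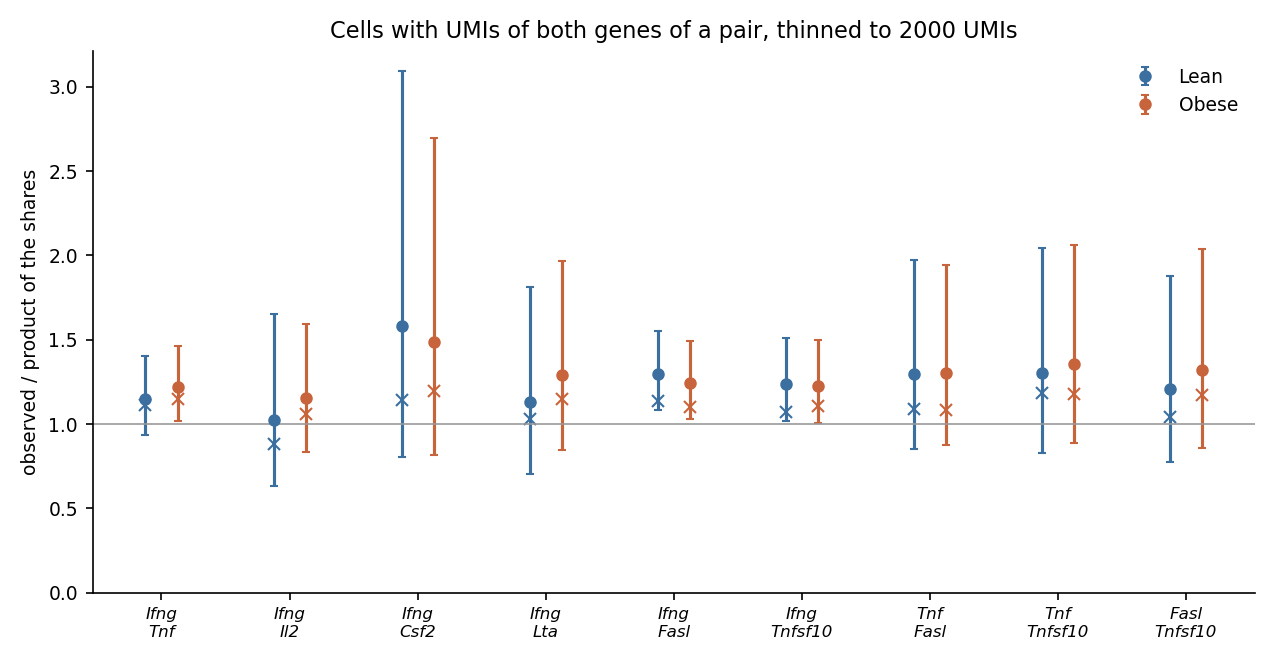
Joint detection of 9 pairs of members over the product of their shares in cells thinned to 2000 UMIs, by library; dots are over all cells with Wilson intervals of the joint share, crosses use the product within clusters, and the line at 1 marks independence. Dots of Ifng with Fasl and Ifng with Tnfsf10 lay above 1 in both libraries. So did those of Ifng with Tnf, Il2, Csf2 and Lta and of Fasl with Tnfsf10, for which the Lean intervals included 1. Every cross lay nearer to 1 than 1.20.

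Genes whose level over 21 groups (each library's fine clusters of at least 30 cells) was most like that of a member were ranked by Pearson's r on log2(CPM + 10) among 5478 genes, as a description. For Ifng they were the chemokine gene Ccl4 (0.95), S100a4 (0.94) and Gng2 (0.93). For Csf2 they were Cd81 (0.94), Cd70 (0.90) and Fars2 (0.85), and for Lta Crtam (0.85), Cd200 (0.76) and Reep3 (0.75). Fasl was most like the chemokine receptor gene Ccr2 (0.92), Fgl2 (0.92) and Rgs1 (0.91), and Tnfsf10 most like Rgs1 (0.90), Serpina3g (0.89) and Ttc39c (0.88). Tnf was most like Zdhhc18, Xpo6 and Tes (0.95 each), Il2 most like Arhgdib (0.87), Dmac1 (0.79) and Rnasek (0.79), and Ltb most like Rnaset2a (0.94), Mettl23 (0.90) and Myl12b (0.90). Among the members Fasl and Tnfsf10 were most alike (0.82), then Tnf and Fasl (0.77), and Tnf and Ltb had a negative r (−0.66). High Tnf with low Ltb was seen in the hemoglobin-led fine cluster (median 2323 UMIs), 150 and 400 CPM with libraries pooled. It was also seen in the Gm26917-led fine cluster (median 5114 UMIs), 126 and 337 CPM. The value of r without such cells was not computed. The 21 groups share libraries and differ in depth. The shallowest, 63 Obese cells with a median of 793 UMIs, had the highest Tnf of all groups, 162 CPM on 9 UMIs. It had no UMI of Il2, where a count of 0 allows up to 66.5 CPM.

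Receptors of the members lay close between libraries. Of 14 genes 12 had at least 50 UMIs, 1 was past a log2 ratio of 0.5 toward Obese and 1 toward Lean, beside 5.81% and 4.15% of all genes tested, with a median of −0.08. The counts by direction are thus near those of all genes. The most abundant were Ifngr1, the ligand-binding chain of the interferon gamma receptor, at 281 and 271 CPM, and Il2rb, the IL-2 receptor beta chain, at 279 and 252 CPM. Il10ra stood at 45.2 and 31.9 CPM, which gave a log2 ratio of −0.50 (−0.63 to −0.38), and Ifngr2 at 0.97 and 1.88 CPM on 27 and 54 UMIs. Of 12 other TNF superfamily ligands 8 were measured, 0 were past 0.5 toward Obese and 1 toward Lean, beside the same shares of all genes. The 1 was Tnfsf8 (CD30 ligand) at 18.05 and 10.97 CPM and −0.72 on the log2 scale (−0.93 to −0.51). Cd70 stood at 13.3 and 13.1 CPM. Of 17 other T cell cytokines only Mif, Tgfb1, Il16 and Osm reached 50 UMIs, and none of the 4 was past 0.5.

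Some transcription factors of cytokine genes and mRNA decay factors were past the limit toward Obese. Of 25 transcription factors 24 were measured, of which 6 were past 0.5 toward Obese, 0 toward Lean and 18 neither, beside 5.81% and 4.15% of all genes tested. Their median log2 ratio was 0.19, beside 0.04 over all genes, and 5 of the 24 lay below 0. The 6 were Junb (1039 and 1848 CPM, 0.83), Fos (315 and 500.3 CPM, 0.67) and Fosb (214 and 307 CPM, 0.52), which are AP-1 subunits, Eomes (29.3 and 50.8 CPM, 0.79), Maf (14.4 and 26.1 CPM, 0.85) and Bhlhe40 (302 and 430.1 CPM, 0.51). Of other AP-1 genes, Jund stood at 1345 and 1245 CPM and Jun at 389.6 and 489 CPM (0.33), and Tbx21, which encodes T-bet, at 27.6 and 22.9 CPM with −0.27 (−0.42 to −0.12). Of 10 factors of AU-rich and stem-loop mRNA decay all were measured, 4 were past 0.5 toward Obese, 0 toward Lean and 6 neither, beside the same shares of all genes, with a median of 0.31. Zfp36 stood at 110.5 and 199.6 CPM (0.85), Zfp36l2 at 215 and 326 CPM (0.60) and Zc3h12a, the endonuclease Regnase-1, at 29.3 and 48.4 CPM (0.72). The fourth was Tnfaip3, known as an inhibitor of NF-kB signalling and not as a decay factor, at 268 and 389 CPM (0.54).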

How the data were processed

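Per the labels, TIL were captured with Chromium 3′ chemistry, and the authors' processing notes name Cell Ranger 6.0.2 and mm10. The deposited matrices hold raw UMI counts per gene and cell. No columns of other samples were found. Cells were kept by the study's limits, UMIs were summed per library or cluster, and CPM were given with exact Poisson intervals, log2 ratios with exact conditional binomial intervals and shares with Wilson intervals (95%), which cover counting error only. Thinning used expected values without replacement. Clusters came from Seurat 5.3.0 in R 4.3.3 (2000 variable genes without the members, 20 principal components, 20 neighbours, resolution 0.15). Since 6 clusters were never obtained, the lowest resolution giving at least 6 was used, which gave 7. No doublet caller was run. A log2 ratio past 0.5 with at least 50 UMIs was counted. Members, gene lists and cluster markers were chosen with earlier results of these data known. The named genes were the members, the 3 genes most like each member with at least 200 UMIs, and, from each list, those past 0.5 and the pair of most UMIs; Tbx21, Jun, Il16 and Osm were named after their values were seen. TMM factors came from edgeR 4.0.16. Calculations ran in Python 3.11.15 with numpy 2.4.6 and scipy 1.17.1 and were tested on simulated data. The simulated gene totals varied by counting error only, so they do not test the ratio intervals for genes whose UMIs lie in few cells. Of the gene IDs 99.6% matched GENCODE M21. Il2 overlaps Adad1 and Csf2 overlaps an antisense gene, both on the opposite strand, Ifng overlaps a same-strand model (Gm49751), and Lta and Ltb each hold a same-strand miRNA gene.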

Additional observations from a re-analysis of the deposited data

Results flagged for a closer look

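The Ifng log2 ratio Obese over Lean lay on opposite sides of 0 in different clusters, with counting intervals that did not include 0. It was 0.29 in interferon-stimulated-like, 0.30 in naive-like and 0.44 in cluster 4 cells, and −0.16 in proliferating-like and −0.34 in effector-like cells. In the finer clustering, groups of like cells lay on opposite sides of 0 too: the ratio was 0.76 (0.52 to 0.999) in 681 cells with Klra7, Pde2a and Nsg2 among their leading genes and −0.999 (−1.69 to −0.32) in the 328 led by Igfbp4, Lef1 and Ccr7. It was −0.15 (−0.22 to −0.09) in the Gzmd-led cells (524 Lean and 196 Obese) and 0.16 (−0.08 to 0.40) in the Cxcl13-led cells (90 and 112). The difference between clusters was not tested, as each diet has 1 library.

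Cells outside the limits also carried the members. Cells of 50000 UMIs or more (83 Lean and 121 Obese) held a summed 1516.5 CPM of the 9 genes in Lean and 1194.8 CPM in Obese. Cells with 7.5% or more mitochondrial UMIs (158 and 213) held 917 CPM in Lean and 680.1 CPM in Obese.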

How the results depend on the processing

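Of 96 recomputed member ratios, 81 stayed within the interval of the value reported, 14 left it without turning, and 1 left it and turned direction: the Ifng log2 ratio was 0.11 as the mean of within-cluster ratios with equal weights, against −0.14. Ifng moved most often, in 7 of 11 settings, to −0.053 at 1000 UMIs and −0.20 in all deposited cells. In all 6 ratios changed sign, the other 5 within intervals that included 0: Fasl (up to 0.02) when thinned to 2000 or 1000 UMIs, and Tnfsf10 (up to 0.04) in these and as the mean of clusters. The median ratio of the members was 0.136 when cells were thinned to 2000 UMIs and 0.061 as the mean of clusters, where by construction only the 6 members seen in every cluster and library enter (not Il2, Il10 or Csf2). No interval of the median itself was computed. Under the other scalings and cell filters the median lay within the counting interval of Tnf, the middle member (0.137 to 0.377). The difference in cells with 2 or more of 5 cytokines kept its direction in all settings. It was 0.94 percentage points at 1000 UMIs, 5.41 at 4000 UMIs and 12.2 without thinning, where by construction more genes are seen. In the cells outside the limits taken alone the order was opposite, with overlapping intervals. Leaving out Il2 or the highest cells was chosen after seeing the data, as was Csf2 in effector-like cells without its 10 highest cells. The alternative set to 8 clusters gave 11. Under the 4 other clusterings, effector-like over naive-like kept its direction for all members with a UMI in naive-like cells except Ltb with 5 clusters, −0.07 against 0.30. With 5 clusters the matched clusters held further cells, so that ratio is not of the same cells. No paired analysis was possible because each diet has 1 library with the replicate number 1. With 1 library per diet, no replicate could be left out. Il10, Csf2, Lta and Il2 are limited by depth, with 95, 509, 523 and 755 UMIs in all.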
